A study of Mus musculus with 2 samples.

Results

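The cells described here are the main Sertoli cells of the RAD21L KO testis: 1076 cell barcodes of the KO library, of 7118 KO barcodes and 12533 barcodes in the series. The members were chosen by measured values of the same barcodes: a KO barcode was taken if it had at least 500 detected genes and at least 2000 unique molecular identifiers (UMIs, each counted as 1 captured transcript), and if 6 Sertoli genes (Clu, Inha, Sox9, Rhox8, Defb36 and Wfdc10) gave at least 0.6% of its UMIs. It also had to hold under 0.3% of the Leydig cell genes Cyp17a1, Insl3, Hsd3b1 and Cyp11a1, and fewer than 3 UMIs of Wfdc18, Hrk, Rasl10a and Tesc, which mark a smaller Sertoli group of 180 barcodes in the same library. The members made up 16.8% of the 6409 KO barcodes with at least 500 genes (exact Clopper-Pearson 95% interval 15.9% to 17.7%). They held 26.7% of the UMIs of those barcodes.

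The study dissociated whole testes of Rad21l-/- and Rad21l+/+ mice aged 55 days and loaded the single cells on a 10x Chromium chip, with 1 library per genotype. RAD21L is a meiotic subunit of cohesin, the ring complex that holds sister chromatids together. The strain is not given in the sources used here, and neither is how many mice went into a library. Differences between genotype, strain, animal and library cannot be told apart, so no test was run and every interval below covers counting error only.

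Sertoli cells are the somatic cells of the seminiferous tubule. They enclose the germ cells, close the blood-testis barrier with junctions between neighbouring cells, answer to follicle stimulating hormone and androgen, and secrete inhibin, carrier proteins and growth factors for the germ line. They also feed germ cells with lactate and take up dying germ cells and residual bodies.

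Promoters of some genes with a large ratio to other KO barcodes and of a rule gene are shown first. In them, 3 letter strings bound by factors of Sertoli cells were searched. For SOX factors the string searched was AACAAT. For the factors of the GATA family it was AGATAA. For the nuclear receptor NR5A1 it was AAGGTCA. Both strands were read, in the 250 bases before each RefSeq transcript start (build GRCm38.p6, which differs from the build of the deposited counts). Of the 20 genes with the largest ratio to other KO barcodes, 15 had an entry, with 20 promoters. AACAAT was found in 3 of these 20 (15%), against 9.42% of all 32851 promoters in the table, AGATAA in 4 (20%, against 9.99%), of which both Btnl10 promoters overlap and share a match, and AAGGTCA in 1 (5%, against 4.08%). A match is a description and not a binding site. The promoter of Shbg, which encodes the androgen and oestrogen carrier, lies at chr11:69617906-69618155 on the minus strand. That of Zfp976, a zinc finger gene, lies at chr7:42642605-42642854 on the minus strand. The promoter of Dnm3, a dynamin gene, lies at chr1:162478035-162478284 on the minus strand. Grin2c, a glutamate receptor subunit gene, has its promoter at chr11:115267244-115267493 on the minus strand. That of Wfdc10, a member of the rule, lies at chr2:164655796-164656045 on the plus strand and holds both a SOX and a GATA string. Of the 6 Sertoli genes of the rule 3 had an entry, and Inha and Defb36 among them had no match. Every promoter shown was taken from those with a match. Capitals mark the matched letters, with the GATA string read from the other strand in Zfp976 and Wfdc10.
Shbg: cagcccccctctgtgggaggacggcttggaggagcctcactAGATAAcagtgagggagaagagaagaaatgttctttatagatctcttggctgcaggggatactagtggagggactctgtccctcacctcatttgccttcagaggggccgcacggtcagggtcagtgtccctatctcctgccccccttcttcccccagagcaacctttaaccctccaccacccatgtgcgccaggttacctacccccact
Zfp976: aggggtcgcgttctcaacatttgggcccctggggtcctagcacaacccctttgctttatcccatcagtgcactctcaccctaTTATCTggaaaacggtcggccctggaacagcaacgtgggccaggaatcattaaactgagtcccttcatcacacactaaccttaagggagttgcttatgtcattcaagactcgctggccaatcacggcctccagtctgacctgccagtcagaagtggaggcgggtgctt
Dnm3: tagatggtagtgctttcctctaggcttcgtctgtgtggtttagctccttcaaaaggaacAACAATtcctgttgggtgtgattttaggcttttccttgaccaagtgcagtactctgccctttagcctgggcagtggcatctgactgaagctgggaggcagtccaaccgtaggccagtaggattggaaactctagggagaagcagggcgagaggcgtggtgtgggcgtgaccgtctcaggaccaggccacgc
Grin2c: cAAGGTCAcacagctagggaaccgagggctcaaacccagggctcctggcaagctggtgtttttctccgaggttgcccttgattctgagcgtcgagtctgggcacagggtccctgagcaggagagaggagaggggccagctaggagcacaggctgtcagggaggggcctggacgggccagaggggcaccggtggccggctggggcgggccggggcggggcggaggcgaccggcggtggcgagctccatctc
Wfdc10: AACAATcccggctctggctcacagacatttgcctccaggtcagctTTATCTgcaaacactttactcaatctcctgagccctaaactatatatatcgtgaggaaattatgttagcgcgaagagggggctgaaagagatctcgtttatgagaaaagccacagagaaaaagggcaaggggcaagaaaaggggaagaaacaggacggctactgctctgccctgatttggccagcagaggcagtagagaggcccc

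The members were deeply read, in part because the rule asks at least 2000 UMIs of them and not of the other barcodes. UMIs per member ran from 2000 to 23187 with a median of 6558.5, and the median number of genes was 3264. The other 5333 KO barcodes with at least 500 genes had a median of 2657 UMIs. The 6 Sertoli genes gave 0.602% to 2.49% of a member's UMIs, with a median of 1.32%. At the threshold, 22 barcodes lay from 0.6% to under 0.7% and 19 from 0.5% to under 0.6%. The 10 members just inside ran from 0.602% to 0.641%, and the 10 barcodes just outside from 0.542% to 0.594%. Of the Wfdc18, Hrk, Rasl10a and Tesc transcripts, 663 members had no UMI, 320 had 1 and 93 had 2. The plot of the Sertoli share against depth shows a dense group of members apart from the barcodes under the line, and a second body of barcodes with the same Sertoli share below 2000 UMIs. This body counted 1077 barcodes, about as many as the members, so that, with the 180 and 47 over the Leydig limit, the other KO barcodes held 1304 with at least 0.6% Sertoli genes. Over the 4029 others under 0.6% the junction list had a median of 1.91 in place of the 1.44 given below, the largest shift of the 18 lists, and 2593 (17.8%) and 4481 (30.8%) of 14536 genes were at least 2-fold higher and lower in the members.

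**Figure D1:**
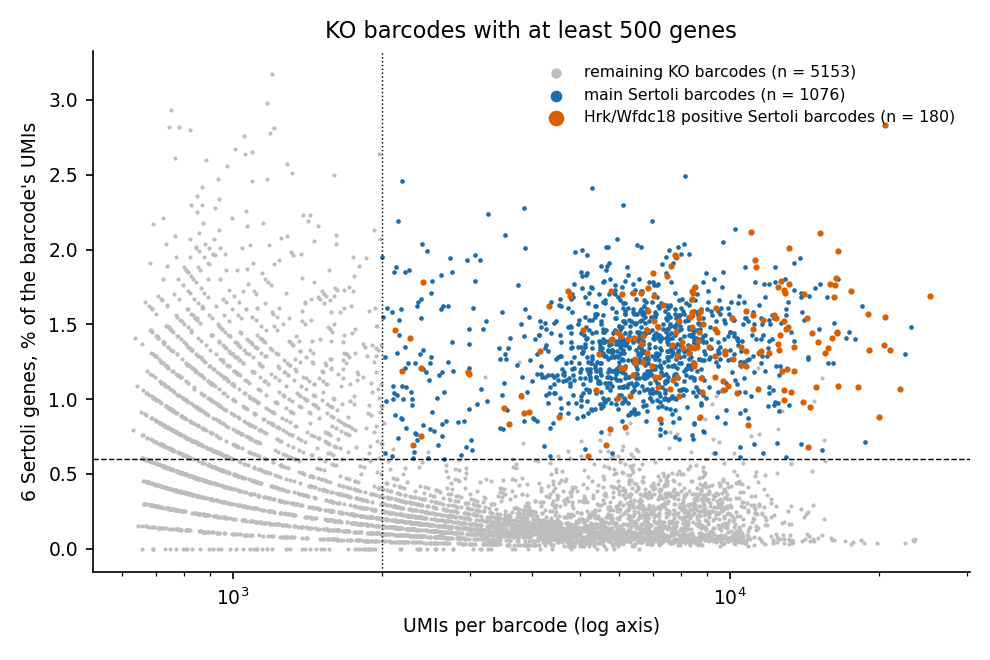
Share of UMIs from the 6 Sertoli genes (vertical axis, percent) against UMIs per barcode (horizontal log axis) for the 6409 KO barcodes with at least 500 genes, with the 0.6% and 2000 UMI limits as lines. The 1076 main members and the 180 Hrk and Wfdc18 positive barcodes overlap in Sertoli share and in depth.

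The label was checked against markers of other cell types. Of the 8 Leydig markers 4 are capped by the rule, so their low level was set by it. The other 4 gave 0.0244% of member UMIs against 0.209% in the other KO barcodes. All 8 gave 0.0403% against 0.594%, macrophage markers (8 genes) 0.0167% against 0.105%, and early spermatocyte markers (11 genes) 0.0309% against 0.224%. Stromal markers (7 genes) gave 0.00889% against 0.0983%, and 29% of members had a UMI of one, while Lum was at 0. Spermatid markers (8 genes) gave 0.00205% against 0.00117%, with 151 UMIs in the members and Acrv1, Tssk1 and Tnp2 at 0. Members held 44.9% of the 274 Spaca1 UMIs in KO barcodes with at least 500 genes. Spermatogonia markers (11 genes) had the highest share of these classes, at 0.0572% against 0.143%, with a UMI in 89.3% of members. These markers did not go together. Of the UMIs in KO barcodes with at least 500 genes, members held 56.7% for Id4, 34.6% for Etv5 and 25.6% for Uchl1. Over all genes they held 26.7%. For Dazl they held 4.86%, and less for each of the remaining markers of this class. Peritubular myoid markers (7 genes) gave 0.027% against 0.0543%, with a UMI in 69.4% of members. Endothelial markers gave 0.00246% against 0.00564%, and pachytene spermatocyte markers 0.00394% against 0.00634%. The markers of a class were uneven here too. Among KO barcodes with at least 500 genes, members held 19.2% of Mrc1 UMIs and 2.99% or less for each other macrophage marker. For the myoid markers Myl9 and Acta2 they held 35.4% and 12.3%, and 4.38% or less for the others. For the endothelial marker Kdr they held 45%, and 8.51% or less for the others. All 6 lymphocyte markers had 0 UMIs. At least 0.5% of UMIs came from Leydig markers in 1 member, from macrophage markers in 1, from myoid markers in 4, from stromal markers in 4 and from early spermatocyte markers in 5. Mitochondrial ribosomal and transfer RNA took a median of 3.15% of a member's UMIs and 32.3% in the highest. Libraries WT and KO shared 14 barcode sequences, 2 of them KO members, and no barcode was a member in both. Rad21l itself had 2 UMIs in the members and 0 in the 43 WT barcodes that met the same rule. Which part of the gene is lost is not given in the sources used here, so this does not check the genotype.

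The following levels (CPM) are UMIs summed over the members and scaled to 1000000 in all, and ratios are log2 of member CPM over that of all other KO barcodes with at least 500 genes. Because Sertoli genes chose the members, these ratios describe the cells and support nothing further. Of 14797 genes with at least 50 UMIs, 2253 (15.2%) were at least 2-fold higher in the members and 4306 (29.1%) at least 2-fold lower, and the median ratio was -0.21. Among genes outside the rule with at least 500 UMIs in the members, predicted genes left out, Grip1, a scaffold protein for receptors at cell contacts, had the largest ratio. It stood at 598 CPM in the members and 57.5 in other KO barcodes, a log2 ratio of 3.38, or 4.72 against the barcodes under 0.6% Sertoli genes, and 79.1% of its UMIs in these barcodes came from members. Next came Mcf2, a guanine nucleotide exchange factor (92.9 against 11.2 CPM), the forkhead factor Foxq1 (126 against 16.1) and Grin2c (88.0 against 11.8). Polarity genes were present at both strands of 1 locus, with Pard3b at 297 against 43.9 CPM and its antisense transcript Pard3bos1 at 140 against 19.8; whether the counting used strand is not given, so the pair may share reads. Among named genes outside the rule, predicted, mitochondrial and ribosomal genes left out, the most abundant transcript was the nuclear RNA Malat1 with 97891 UMIs, which was lower than elsewhere (13294 against 36165 CPM). Defb19, a defensin, followed with 37602 UMIs, Tmsb4x, an actin binding peptide, with 30005, Sparc, a matrix protein, with 22375, and the cystatin Cst12 with 21165.

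Transcription factors of Sertoli identity and gonad development were tested for 17 genes of a list of 21. In the members 7 were at least 2-fold higher, 6 lower and 4 neither, with a median of 0.54 beside -0.21 for all genes. Wt1, required to keep Sertoli cells in their fate, stood at 311 CPM (299 to 324) against 70.9. Sox8, the close relative of Sox9, stood at 81.1 against 13.5 and Gata1 at 125 against 25.6. Nr0b1, an orphan nuclear receptor known as DAX1, had 148 CPM against 33.1. The factors shared with other somatic cells or the germ line differed less: Gata4 had 101 against 53.7 CPM, Nr5a1 106 against 82.3, and Dmrt1 80.1 against 88.4. The 6 lower genes, among them Tcf21, Lhx9, Esr1, Zfpm2 and Cbx2, had 0.815 to 3.94 CPM in the members.

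Receptors and their signal components gave 5 higher, 7 lower and 9 neither of 21, with a median of 0.53. Fshr, the receptor of follicle stimulating hormone, stood at 39.9 CPM (35.5 to 44.8) against 5.25, a ratio of 2.93. It was sparse: 22.9% of members had a UMI. At 2000 UMIs per barcode 6.78% of the members had one, against 0.677% of 1034 germ cell barcodes, where it was 1.2% before thinning (median 4253 UMIs). The germ cell, macrophage and Leydig barcodes used here and below were taken only from those under the Sertoli share limit of the rule. The cyclic AMP phosphodiesterases Pde4d (213 against 46.8 CPM) and Pde4b (81.8 against 18.2) and the receptor genes Rara (156 against 54.1) and Vdr (69.9 against 16.5) were the other members of the higher group.

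Of the inhibin, activin and AMH genes 3 were higher, 2 lower and 9 neither of 14, with a median of 0.12. Inhbb, the beta B subunit that pairs with Inha in inhibin B, stood at 253 CPM against 36.6. Inhba, the beta A subunit, stood at 11.4 against 11.1. Amhr2, the receptor of anti-Müllerian hormone, reached 1356 CPM against 283. Amh, the hormone of immature Sertoli cells, had 85 UMIs in all members together, 11.5 CPM against 2.13.

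Ligands of the germ cell niche gave 5 higher and 13 lower of 18, with a median of -2.79, so most genes of this list belonged to other cells of the library. The 5 were Gdnf, which keeps spermatogonial stem cells (18.7 CPM against 2.57), Kitl, the ligand of KIT on differentiating spermatogonia (342 against 167), Dhh, the hedgehog ligand sent to Leydig and myoid cells (142 against 26.4), Il1a (11.3 against 3.51) and the neuregulin receptor Erbb4 (57.0 against 8.81). Gdnf was counted in 11.5% of members, and in 3.9% at 2000 UMIs against 0.29% of germ cell barcodes (0.4% unthinned). Kitl was also at 217 CPM in Leydig barcodes. The lower genes included Cxcl12 (4.35 against 85.1 CPM), Igf1 (11 against 172), Wnt6 (12.2 against 134) and Tnf (1.36 against 24.3, and 411 in macrophage barcodes).

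Junction and barrier genes were the list with most members on the higher side: 14 higher, 7 lower and 4 neither of 25, with a median of 1.44. The higher genes included parts of tight and gap junctions and of adhesion contacts. Among tight junction proteins, Ocln stood at 70.3 CPM against 10.1, Cldn11 at 685 against 171 and Cgn at 539 against 120. Gja1, the gap junction protein connexin 43, stood at 505 against 124. Espn, which bundles actin at the ectoplasmic specialization, had 1080 against 198, and Nectin2 and Cdh2, adhesion molecules of the same contacts, had 314 against 94.6 and 274 against 71.9. Cldn5, the claudin of endothelium, stood at 2.04 against 17.2, and Cxadr at 1.77 against 14.3. The other lower genes were Marveld2, Pard3, Ptk2, Lamc3 and Epb41l4b. In the cytoskeleton list 7 of 20 were higher, 4 lower and 9 neither (median 0.33). Map1b (1266 against 309 CPM), Tubb3 (294 against 77.7) and Tuba1a (557 against 165) are microtubule genes, and Vim, the intermediate filament of Sertoli cells, stood at 914 against 401.

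**Figure D2:**
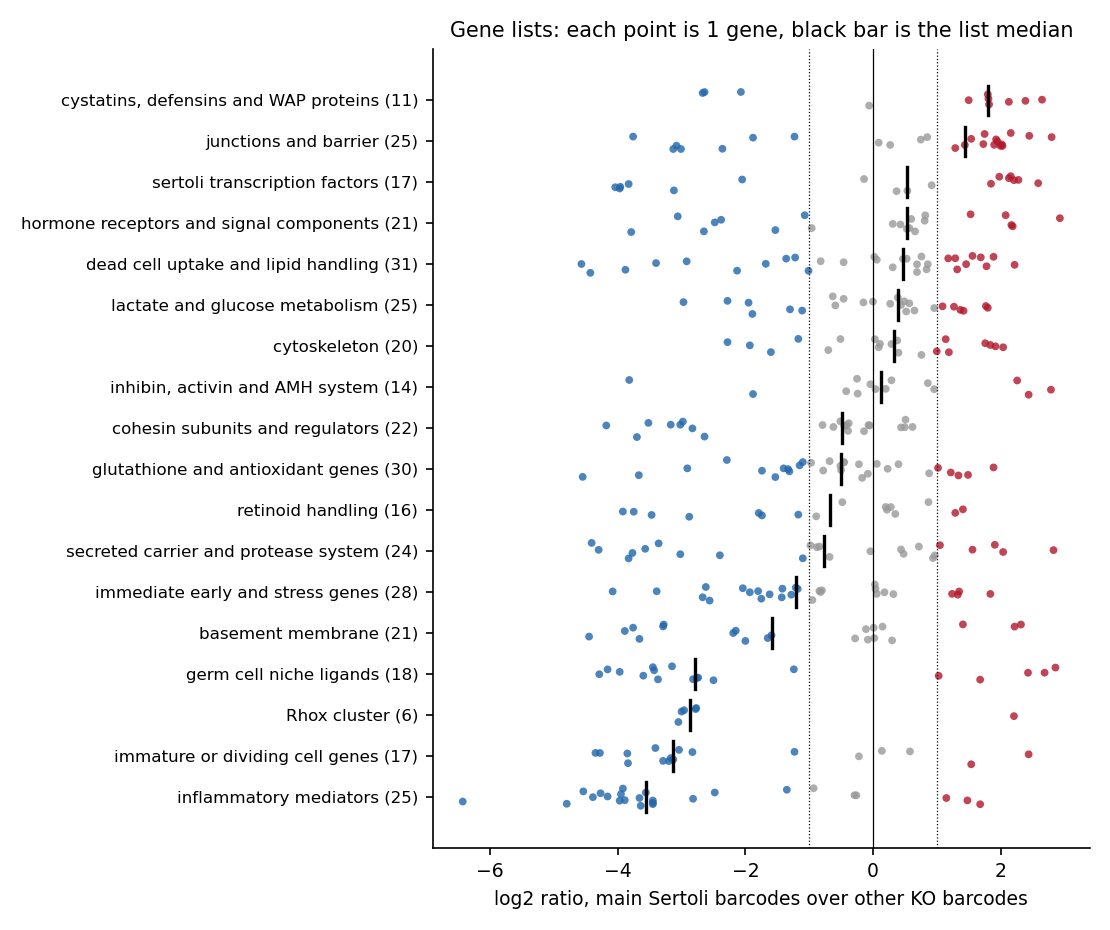
Each point is 1 gene of a list, placed by the log2 ratio of CPM in the main Sertoli barcodes over other KO barcodes (horizontal axis), with the black bar at the list median and the number of genes tested in brackets. Cystatins and defensins (median 1.80) and junctions (1.44) lie highest, and inflammatory mediators (-3.56) and dividing cell genes (-3.13) lowest.

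Secreted products were divided. In the list of cystatins, defensins and WAP proteins 7 of 11 were higher, 3 lower and 1 neither, with a median of 1.80; Defb36 and Wfdc10 are not in this count since they are in the rule. Cst12 stood at 2874 CPM against 550 and Cst9 at 1934 against 441, both cystatins, and Eppin, a protease inhibitor gene, at 157 against 55.4. The common cystatin Cst3 was lower, at 544 against 2278. Among 24 carriers and proteases 5 were higher, 9 lower and 10 neither (median -0.76). Shbg stood at 306 CPM (293 to 319) against 43, and in single members its level per 10000 UMIs had a 10th percentile of 0, a median of 2.80 and a 90th percentile of 6.16. Ctsl, the cathepsin of Sertoli cells, stood at 2705 against 719. Trf, the iron carrier transferrin, was lower, at 50.7 against 108, and macrophage barcodes held 726 CPM. Of the Rhox homeobox genes tested, Rhox5 was higher (213 against 45.9 CPM) and the other 5 lower (median -2.87), each with 8.83 CPM or less in the members.

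Metabolic lists had medians closer to the rest of the genes. Of 25 lactate and glucose genes 6 were higher, 6 lower and 13 neither (median 0.39). Ldhb stood at 1213 CPM against 453 and Hk2 at 383 against 112, while Ldha had 80.1 against 61.1 and the lactate exporter Slc16a3 had 5.02 against 18.6. The retinoid list gave 2 higher, 7 lower and 7 neither of 16 (median -0.68). The higher genes were the retinol receptor Stra6 (15.3 against 6.29 CPM) and Lrat (11.7 against 4.41). Glutathione and antioxidant genes gave 5 higher, 11 lower and 14 neither of 30 (median -0.50), with Gstm6 (672 against 181), Gstm7 (501 against 179) and Gsta4 (756 against 299) highest. In the list for uptake of dead cells and lipid 9 were higher, 10 lower and 12 neither of 31 (median 0.47). All 3 genes of the TAM receptors, which bind bridging proteins on dead cells, were higher: Tyro3 at 221 against 47.4 CPM, Axl at 170 against 52.7 and Mertk at 119 against 47.9. The bridging protein gene Mfge8 stood at 319 against 116, while Gas6, which encodes a TAM receptor ligand, stood at 102 against 261.

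Cell cycle, inflammatory and matrix genes were mostly below the other KO barcodes. Of 17 genes of immature or dividing cells 12 were lower, 2 higher and 3 neither (median -3.13). Mki67 stood at 33.8 CPM against 360 and 787 in germ cell barcodes, Top2a at 52.0 against 479, and Ccnd2 at 8.96 against 128. The higher genes were Amh and Cdkn1b, an inhibitor of the cycle (103 against 35.4). Of 25 inflammatory genes 19 were lower, 3 higher and 3 neither (median -3.56), and Nfkbia, the NF-kappaB inhibitor, was among the higher (461 against 208). Of 28 immediate early and stress genes 15 were lower, 4 higher and 9 neither (median -1.20), with Fos at 428 against 1494, and Hspb1 as the highest ratio at 677 against 189. Basement membrane genes gave 3 higher, 11 lower and 7 neither of 21 (median -1.59). The 3 were Col18a1 (360 against 71.9 CPM), Lama1 (171 against 36.6) and Lamb2 (276 against 104), while the collagen IV genes Col4a1 and Col4a2 stood at 39.9 against 160 and 36.8 against 111. No cohesin gene of 22 was higher, 8 were lower and 14 neither (median -0.48). The general subunits Rad21 (256 against 181 CPM), Smc1a (111 against 145) and Smc3 (228 against 349) were present, and the meiotic Stag3 stood at 13.2 against 107 with 278 in germ cell barcodes.

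The members were set against the 180 Hrk and Wfdc18 positive Sertoli barcodes of the same library. Those 180 were deeper (median 8650 against 6558.5 UMIs) and had less mitochondrial ribosomal and transfer RNA (median 1.51% against 3.15%). The rule split the 2 groups by 4 genes, so their levels are no finding. Of 10743 genes with at least 50 UMIs in both groups together, 316 (2.94%) were at least 2-fold higher in the main members. At least 2-fold lower were 443 (4.12%), with the 4 genes of the rule counted among them. The median ratio was 0.05. Some identity and barrier genes lay close: Wt1 had 311 CPM in the main members and 313 in the other group, Dhh 142 and 143, Cldn11 685 and 896, and Cgn 539 and 557. None of 11 transcription factors tested differed by 2-fold. Of 21 barrier genes Lamc3 was higher in the main members and Cxadr lower. The signal genes Fshr and Pde4d did, as 2 of 15 in their list. Fshr stood at 39.9 against 16.5 CPM (log2 ratio 1.27) and Pde4d at 213 against 90.5. Inhba had 84 UMIs and 11.4 CPM in the main members against 1.71 CPM in the other group, a count at the floor of 3 UMIs. Ptk2b, a focal adhesion kinase (28.1 against 5.69 CPM), Frmpd1 (32.9 against 7.97), Pard3bos1 (140 against 41.0), Pard3b (297 against 114) and Corin, a membrane protease (116 against 44.4), were among the 15 named genes of largest ratio. Gas6 was also higher in the main members, at 102 against 37.6. The members held 12.4% of its UMIs in KO barcodes with at least 500 genes. Its log2 ratio ran from 1.21 to 5.09 over the alternatives, and the part of free RNA in it was not tested.

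Of the same 15 genes, Smc1b (45.4 against 16.5 CPM), Hormad1 (28.5 against 10.8) and Tex15 (64.8 against 25.6) are meiotic genes, and germ cell barcodes held 1069, 498 and 1628 CPM of them. With marked doublets left out the log2 ratios of Hormad1, Smc1b and Tex15 were 1.17, 0.83 and 0.76, and at 2000 UMIs per barcode 0.42, 0.66 and 0.52. With 10% of the library's profile taken off they were 3.13, 3.06 and 3.15, but no UMI was left in the other group, so these values are set by the floor of 3 UMIs. With 20% taken off Hormad1 stood at -0.32, with 10.1 UMIs left in the members and the other group again set to the floor, so this is no measured reversal. Smc1b and Tex15 had none left in both groups. The part of germ cell RNA in these 3 ratios was not tested further.

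On the other side, the main members had less of Creb5, a CREB family factor (5.84 against 117 CPM, log2 ratio -4.32), of the intermediate filament gene Nes (9.64 against 126), of the matricellular gene Ccn1 (22.7 against 245), of Anxa5 (32.2 against 245) and of the DNA damage response gene Gadd45a (28.4 against 214). Of 13 retinoid genes 4 were lower in the main members. Among them, Stra6 stood at 15.3 against 50.7 CPM, Rdh10 at 21.5 against 69.5 and Aldh1a2 at 34.4 against 112. The catabolic enzyme Cyp26b1 went the other way, at 22.5 against 5.69. Of its 3526 UMIs in KO barcodes with at least 500 genes, the members held 4.71% and both Sertoli groups together 4.99%. The part of free RNA in its ratio was not tested. Cyclin D genes were low in the main members as well, with Ccnd1 at 9.37 against 58.1 and Ccnd2 at 8.96 against 78.6. Tgfb2 stood at 0.679 against 46.1, Serpine2 at 2.99 against 62.1 and Cxadr at 1.77 against 48.4. In the plot of these ratios the intervals of all 14 lower genes shown stay below -1.

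**Figure D3:**
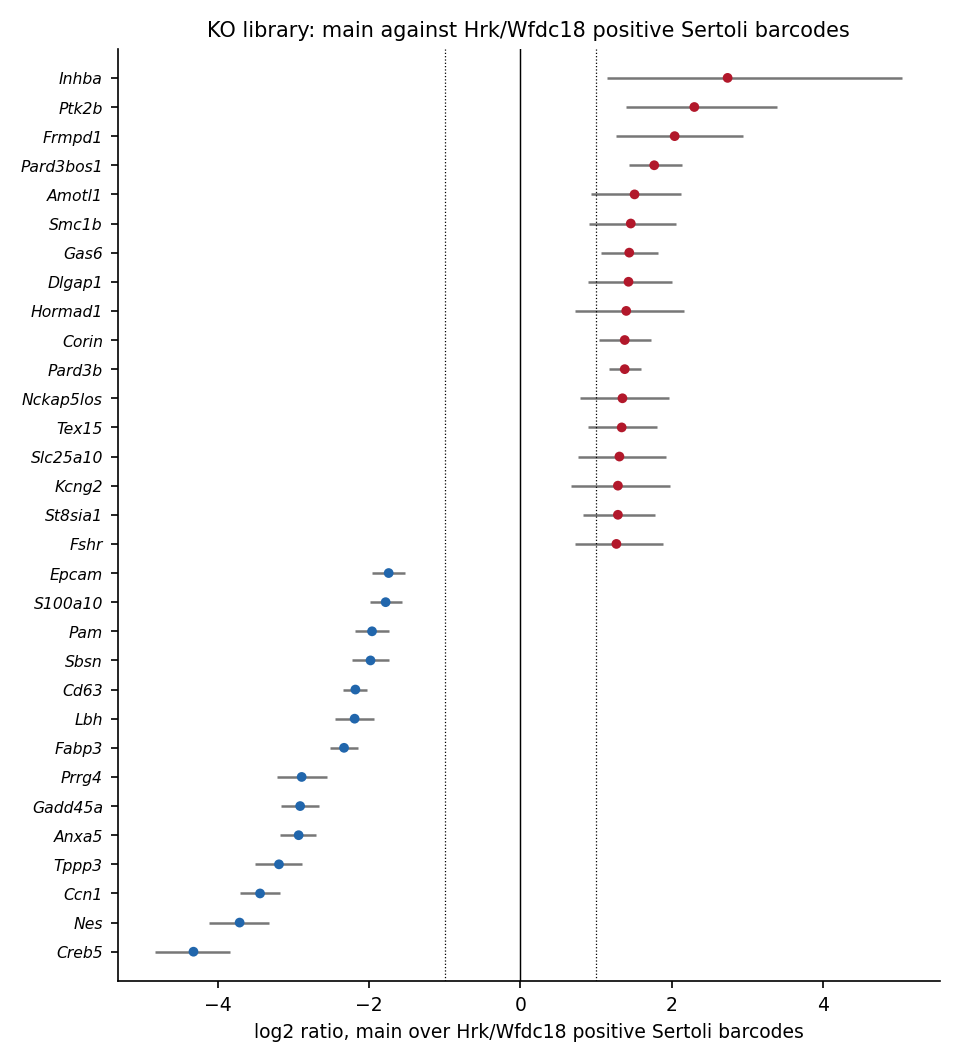
Log2 ratio of CPM in the 1076 main members over the 180 Hrk and Wfdc18 positive Sertoli barcodes for the genes named by rank and for Fshr and Inhba, with exact 95% counting intervals as bars and dotted lines at 2-fold. Creb5 has the lowest ratio, -4.32, and Inhba the highest, with a wide interval and a count at the floor of 3 UMIs in the Hrk and Wfdc18 positive group.

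Spread among the members was measured after each was thinned to 2000 UMIs, with no member too shallow. Over 2265 genes with a mean of at least 0.2 UMIs the median ratio of variance to mean was 1.05, close to the value of 1 that pure counting gives, and the 95th percentile was 1.21. Only 8 genes (0.353%) reached 2. Apoe, a lipid carrier, led with 15.6: the 10% of members with most of it held 79.7% of its UMIs, and 1 member had 67 of its 2000. The 21 members with at least 10 Apoe UMIs per 10000 carried 0.188% stromal marker UMIs against 0.00634% in the other 1055, and 0.124% macrophage markers against 0.0152%. The part of these cell types in the Apoe spread was not tested. Apoe had a mean of 0.652 thinned UMIs in the 359 shallowest members, and means of 0.181 in the next 359 and 0.196 in the 358 deepest. The nuclear RNAs Malat1 (8.62) and Neat1 (8.17) came next.

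Immediate early genes were 5 of the 15 named for their spread: Fos (2.30), Egr1 (2.17), Jun (2.06), Btg2 (1.95) and Junb (1.95). Some of them moved together from cell to cell, with a Spearman correlation of 0.33 for Egr1 and Fos and of 0.28 for Junb and Egr1 over 1076 members. These correlations describe cells of 1 library that share its free RNA and its handling, and only 2 of 231 gene pairs reached 0.3 in size. Secreted and structural genes of high level varied as well, with Defb19 at 2.03, Sparc at 1.90, Pcsk1n at 1.87 and Tmsb4x at 1.87. Ttn, which encodes titin, had a ratio of 1.93, and the 10% of members with most of it held 68% of its UMIs.

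**Figure D4:**
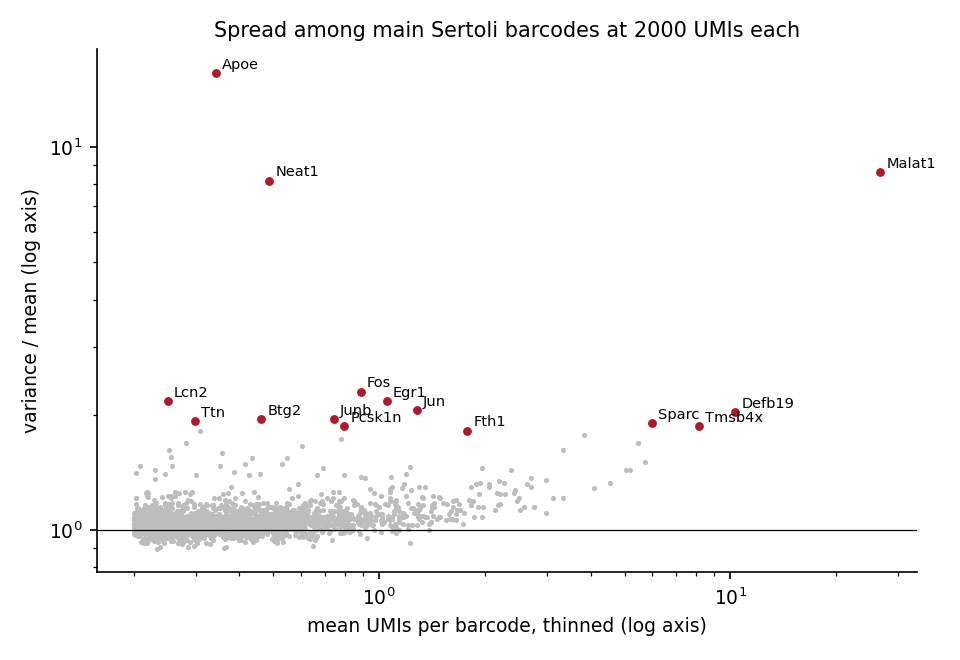
Variance over mean of UMIs (vertical log axis) against mean UMIs per member (horizontal log axis) after thinning each of the 1076 members to 2000 UMIs, 1 point per gene, with the 15 named genes in red. Most genes lie near 1, and Apoe (15.6), Malat1 (8.62) and Neat1 (8.17) lie far above.

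The same rule found 43 barcodes in the WT library, 0.795% of 5407 with at least 500 genes, with a median of 8845 UMIs and 349331 UMIs in all. Among WT barcodes that met the rule but for its last condition, 1 of 44 (2.27%, 0.0575% to 12%) was Hrk and Wfdc18 positive, against 180 of 1256 in KO (14.3%, 12.4% to 16.4%). The WT members carried 0.808% of spermatid marker UMIs, and the other WT barcodes 6.33%, while the KO members carried 0.00205%. Leydig markers went the other way, with 0.0403% in KO members and 0.00315% in WT members. The part of such RNA in the ratios between genotypes was not tested. With 349331 UMIs in WT, a gene at 0 there was set to 3 UMIs for ratios, a level of 8.59 CPM. The exact 95% upper limit of a count of 0 there is higher, at 0.00106% of UMIs.

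Of 10437 genes, 548 (5.25%) were at least 2-fold higher in the KO than in the WT members with an interval that left out no difference, and 732 (7.01%) were lower, with a median of 0.09. Several identity genes were close, and most of all genes compared did not pass these limits either. Wt1 stood at 311 CPM in KO and 309 in WT members (log2 ratio 0.01, -0.27 to 0.30), Sox8 at 81.1 and 74.4, Dhh at 142 and 135, Inhbb at 253 and 218, and Ocln at 70.3 and 74.4. Of 11 transcription factors tested, only Etv5 passed, at 58.8 in KO against 140 in WT. The barrier list had 1 of 20 in each direction, Jam2 higher in KO (201 against 74.4 CPM) and Cldn3 lower (13.7 against 57.3). Among receptors and signal genes 4 of 15 were higher in KO: Fshr (39.9 against 17.2 CPM, ratio 1.22, 0.08 to 2.67, from 6 UMIs in WT), Thra, Prkar2b (80.9 against 14.3) and Nr3c1. Crem was lower. Shbg stood at 306 against 166 (0.88, 0.51 to 1.28), under the 2-fold limit.

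Immediate early and stress genes were the list with most genes higher in KO, 9 of 27 with none lower. Fos stood at 428 against 85.9 CPM (2.32, 1.80 to 2.89), Egr1 at 508 against 223, Atf3 at 126 against 31.5 and Zfp36 at 138 against 57.3. Jun (621 against 498) and Junb (357 against 278) differed less. Fos and Egr1 were also among the 8 genes that varied most among KO members. Other KO cells held more of most of these genes, with 3232 CPM of Fos in macrophage and 2132 in Leydig barcodes, but Gadd45b was at 266 CPM in the members and 165 in macrophage barcodes. The part of RNA from such cells in the ratios was not tested. Igfbp3 (139 against 25.8), Cxcl1 (159 against 28.6), Col18a1 (360 against 157) and Fabp5 (410 against 186) were other listed genes with higher KO levels.

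Some genes were counted in KO members and at or near 0 in WT members. Cnn3, an actin binding protein, had 879 UMIs and 119 CPM in KO and none in WT. With the WT count set to the floor of 3 UMIs, its log2 ratio was 3.80. Timp1, a protease inhibitor, had 82.6 CPM in KO and none in WT, a ratio of 3.27 at the same floor. The metalloprotease Pappa, chosen after its value was seen, had 110 CPM and none, a ratio of 3.68 at that floor. Lcn2 had 126 CPM in KO and none in WT, yet Leydig barcodes of the KO held 11357 CPM, and with 10% of each library's profile taken off both groups were left with 3 UMIs or fewer. Apoe (119 CPM in KO, 2 UMIs in WT, 21926 CPM in KO macrophage barcodes) did the same, and Star, the cholesterol transporter of steroid cells, had 201 against 22.9 with 3206 in Leydig barcodes.

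Beside the spermatid markers in the WT members, Spink2 stood at 177 CPM in WT and 9.51 in KO members, and Gstm5 at 678 against 45.5. Genes with at least 3 times the level of the other WT barcodes were ranked apart, and they were chosen after their values were seen. The pigment gene nonagouti (a) led, with 653 CPM from 228 UMIs in WT members against 11.3 in KO members (-5.86, -6.24 to -5.49). The gene differs in allele between common laboratory strains, and strain and genotype cannot be told apart here. Of the WT members 65.1% had a UMI of it, and of the KO members 6.88%. At 2000 UMIs per barcode these shares were 44.2% and 1.95%, and 0.0967% in KO germ cell barcodes. Ptgds, the prostaglandin D synthase, stood at 681 in WT against 66.0 in KO. Alas2, the haem synthesis enzyme of red cells, stood at 155 against 21.3, while 4 haemoglobin genes had 0 UMIs in the WT members. Among listed genes, Gas6 (352 in WT against 102), Defb45 (258 against 80.3), Nid1 (135 against 37.9) and Trf (129 against 50.7) were also higher in WT.

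**Figure D5:**
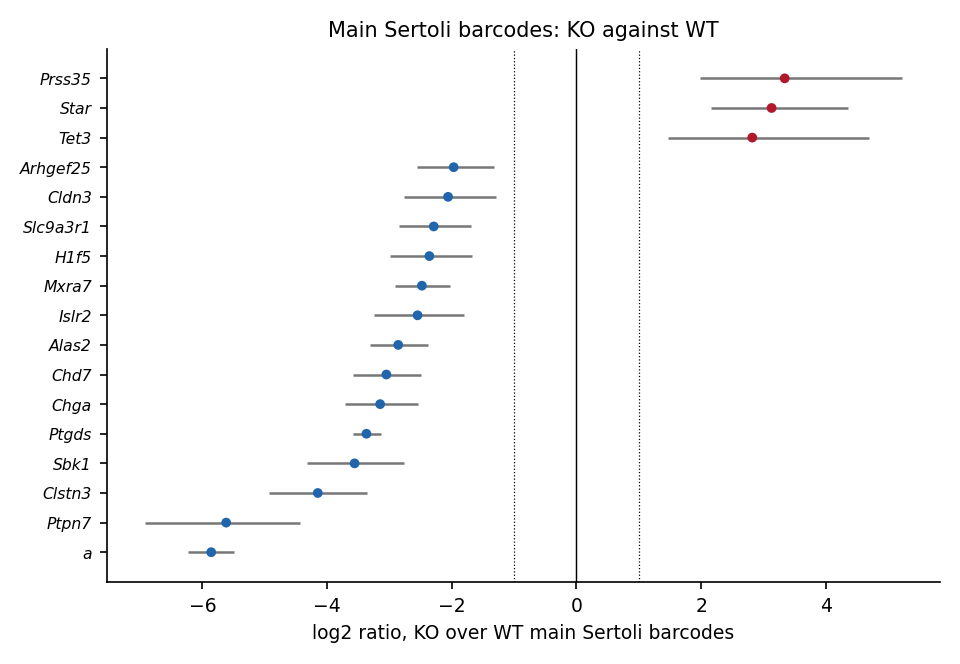
Log2 ratio of CPM in the 1076 KO members over the 43 WT barcodes of the same rule for genes ranked highest each way with over 3 UMIs in WT, with exact 95% counting intervals as bars and dotted lines at 2-fold. Nonagouti (a) has the lowest ratio, -5.86, and Prss35 the highest, 3.34.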

How the data were processed

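The authors deposited 1 matrix of UMI counts, not normalized, for each library (41459 genes). Cell Ranger 6.1.2, Seurat 4.3 and the build GRCm39 are listed in the submitters' processing notes. The step that separated cells from empty droplets is not given in the sources used here. Those counts were summed over the barcodes of a group and divided by the sum of all its UMIs (CPM). Counts under 3 were set to 3 for ratios, and genes with under 50 UMIs in both groups together were not compared. Levels have exact Poisson, shares Clopper-Pearson and ratios exact conditional binomial 95% intervals. PCR and capture error are not in them. Barcodes were thinned to 2000 UMIs at random with a fixed seed for shares and spread, which left out 215 of 1249 germ cell and 91 of 355 macrophage barcodes. Germ cell, macrophage and Leydig barcodes of the KO have at least 0.5%, 1% and 2% of UMIs from marker genes of their class. They were taken only from barcodes under the Sertoli share limit of the rule. Levels of Sertoli genes in them thus describe barcodes already chosen to be low in such genes. Doublets were kept. Scrublet (Scanpy 1.11.5, expected rate 5%) marked 152 of 6409 KO barcodes and 41 members, which were left out as an alternative. It was not run on WT. A few genes of the lists and ranks are counted but not reported here by name.

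Genes named are members of 18 lists (415 of 418 genes found) by role, the 20 with the largest ratio and at least 500 UMIs, the 10 with most UMIs, 15 each way against the Hrk and Wfdc18 positive group with at least 200 UMIs, and 15 by variance over mean. Predicted, mitochondrial, ribosomal and haemoglobin genes and the 14 genes of the rule were left out. Genes of the WT comparison that are in no list were chosen after their values were seen. The members and lists were chosen with earlier results of these data known. The steps were tested on simulated counts. Alternatives covered the membership limits, doublets, mitochondrial ribosomal and transfer RNA, free RNA, depth, filters and scaling. Python 3.11.15, NumPy 2.4.6 and SciPy 1.17.1 were used.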

Additional observations from a re-analysis of the deposited data

Results flagged for a closer look

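The 709 KO barcodes with under 500 genes, which no comparison used, had a median of 588 UMIs. They held 0.724% of their UMIs in the 6 Sertoli genes (3164 of 437292 UMIs, exact Poisson 95% interval 0.699% to 0.749%). Over all 7118 KO barcodes this share was 0.622%. The part of free RNA in it was not tested. In 403 of the 709 (56.8%) the share reached 0.6%, beside 37.1% of the 6409 KO barcodes with at least 500 genes. Erythroid markers gave 5.49% of all UMIs of the 709, but only 8.18% of these barcodes had a UMI of one and 32 reached 0.5%.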

How the results depend on the processing

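No paired analysis was possible because each genotype has 1 library. The 16 alternatives listed at the outset and 1 added after seeing the data (only other KO barcodes under 0.6% Sertoli genes) kept the sign of all 4352 called values of listed and named genes against other KO barcodes, and 44 of these values came under 2-fold. The share of KO barcodes that were members was 24.1% with at least 1000 UMIs, 14.8% with at least 4000 and 14.6% with Sertoli genes at 1.0%. With at least 1000 UMIs, 154 WT barcodes met the rule, and 1126 genes were higher and 1157 lower in KO than WT members. Genes higher than in other KO barcodes numbered 3789 with no count filter, and lower ones 2578 with at least 200 UMIs per gene. Against the Hrk and Wfdc18 positive group, genes higher and lower numbered 524 and 2621 with no filter, 72 and 153 with at least 200 UMIs, and 548 and 687 with 20% free RNA taken off, and lower ones 199 after thinning to 2000 UMIs. Hormad1 stood at -0.32 there with 20% free RNA taken off, a value set by the floor of 3 UMIs since no UMI was left in the Hrk and Wfdc18 positive group. The cause of each of these shifts was not tested, except that the filters set how many genes are compared. The 43 WT barcodes limit every value between genotypes.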

Other observations

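The following genes were chosen after their values were seen or by the ranks. Pcsk1n, which encodes a convertase inhibitor of endocrine cells, stood at 423 CPM against 138 in other KO barcodes and 263 in WT members. Aplp1, an amyloid precursor relative, stood at 136 CPM in the members, 306 in the Hrk and Wfdc18 positive barcodes and had 1 UMI in the WT members. Tnik, a kinase, stood at 467 against 70.8 CPM, and Qpct, glutaminyl cyclase, at 466 against 71.2. Enpp2, autotaxin, stood at 167 against 24.7, and Slc26a7, an anion exchanger, at 178 against 26.6.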
